A study of Mus musculus with 7 samples.

Results

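The comparison set open chromatin in neural progenitor cells (NPC) carrying the deltaFT deletion against that in wild-type NPC. It used 2 of the 7 samples of the series, 1 per genotype, chosen by their titles. Both lines were female F1 cells of a 129S1 x Cast cross, so most reads that cover a strain difference can be given to one of the parental alleles. Wild type was the line C2 and deltaFT the line sgdgb2, each a single line, and both were grown in N2/B27 medium supplemented by FGF and EGF at 10 ng/mL, on gelatin. Each genotype had 2 libraries of 50K cells, sequenced as paired reads of 75 bp. All peaks of the list reproducible between the libraries of a line were taken. These lists hold 41126 peaks for wild type (39692 autosomal and 1434 on chromosome X) and 37270 for deltaFT (36036 and 1234). The peaks contained 11014387 and 11085592 reads, of which 38.5% and 40.4% were assigned to an allele. The list of the female embryonic stem cells (mESC) of the series, with 28907 peaks, served as an outside reference.

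ATAC-seq uses the Tn5 transposase, which inserts sequencing adapters where DNA is not wrapped tightly in chromatin, so that read-rich peaks mark accessible promoters, enhancers and insulators. In female mammals one X chromosome per cell is silenced and loses most of this accessibility, apart from genes that escape inactivation. The inactive X folds into a pair of large domains that meet at a boundary holding the Dxz4 repeat, and deltaFT is known as a deletion of that boundary region. No strain name heads the allele columns, which are named here by their order, first-listed and second-listed. Their coordinates are on the mm9 build, and no gene name could be attached to a peak, so the neural progenitor label was not checked against marker genes here. With 1 line per genotype, a difference between genotypes cannot be told apart from a difference between lines, and no p-value was computed. The intervals given are exact Clopper-Pearson 95% intervals and cover counting error only.

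Most autosomal open sites of either line were open in the other, and the sites not shared were weak ones. Of the autosomal wild-type peaks, 26181 (66.0%) overlapped a peak of the deltaFT reproducible list, 23.5% were found only in one or both of the deltaFT library lists, and 4192 (10.6%, 10.3% to 10.9%) were in no deltaFT list. Of the autosomal deltaFT peaks, 72.2% were in the wild-type reproducible list and 1992 (5.53%, 5.29% to 5.77%) were in no wild-type list. Wild-type peaks in no deltaFT list had a median of 79 reads and a width of 255 bp, against 240 reads and 473 bp for shared peaks.

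The absent share was lower in each stronger class. Among autosomal wild-type peaks with fewer than 50 reads, 50.0% were in no deltaFT list. The share was 23.0% from 50 to under 100 reads, 9.14% from 100 to under 200 and 2.44% from 200 to under 400. At 400 reads or more 44 of 7481 peaks (0.588%) were absent. The deltaFT peaks followed the same course at a lower level, from 31.2% below 50 reads to 0.197% (17 peaks) at 400 reads or more. On chromosome X the absent share over all strengths was higher, 18.4% of wild-type and 16.2% of deltaFT peaks. Within a class of read numbers it lay above or below the autosomal share. Of wild-type peaks 57.1% were absent below 50 reads on chromosome X, but 15.9% from 50 to under 100 and 4.46% from 100 to under 200. Of deltaFT peaks 50.0% were absent below 50 reads, 12.8% from 50 to under 100 and 5.40% from 100 to under 200. Weak peaks were more frequent on chromosome X, where 340 of 1434 wild-type peaks had fewer than 50 reads against 1765 of 39692 on autosomes.

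**Figure D1:**
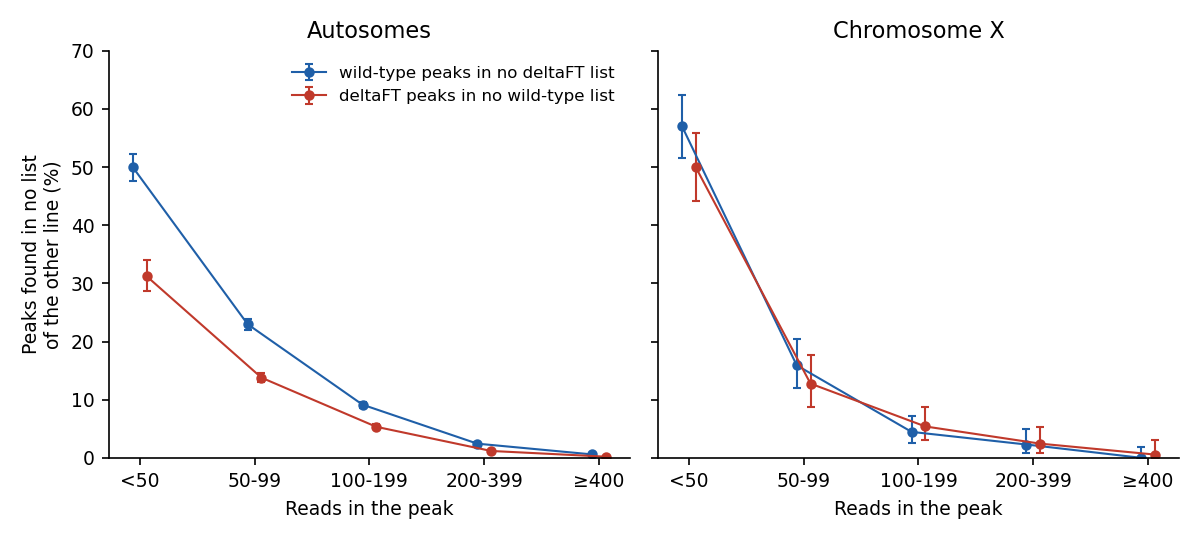
Share of peaks (%, vertical) found in no list of the other line, by the number of reads in the peak (horizontal), on autosomes (left) and chromosome X (right). Points are shares with exact 95% intervals; on autosomes the wild-type share goes from 50.0% below 50 reads to 0.588% at 400 reads or more.

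The absent share also varied along the genome. For wild-type peaks it ran from 8.04% on chromosome 19 to 13.9% on chromosome 14, and for deltaFT peaks from 4.24% on chromosome 13 to 7.14% on chromosome 12. It also rested on how many library lists were searched. The library lists held 87224 and 101230 peaks in wild type and 90019 and 76748 in deltaFT. Without library 1 of deltaFT 17.2% of wild-type peaks were in no deltaFT list, and without library 2 of wild type 11.0% of deltaFT peaks were in no wild-type list. On autosomes, library lists of one line overlapped each other by 69.4% to 84.0% and those of different lines by 58.2% to 77.7%, so these ranges overlapped.

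Sites seen in only one progenitor line were rarely open in stem cells, and less often for wild-type than for deltaFT sites. Of the autosomal wild-type peaks in no deltaFT list 5.77% (5.09% to 6.52%) overlapped an mESC peak, and of the deltaFT peaks in no wild-type list 13.4% (11.9% to 14.9%), against 43.4% of shared peaks in either direction. Shared peaks had more reads, and in the weaker classes of read numbers the gap was smaller. From 100 to under 200 reads 5.92% of absent and 20.7% of all autosomal wild-type peaks overlapped an mESC peak, and 17.2% of absent and 21.3% of all deltaFT peaks. Below 50 reads the values were 3.51% and 7.42% for wild type and 9.14% and 9.15% for deltaFT. Among the strongest of these sites, which were few, the order was the other way round. Of the 44 absent wild-type peaks with 400 reads or more 52.3% overlapped an mESC peak, and of the 17 such deltaFT peaks 17.6%. Both lay below the shares of all autosomal peaks of that strength, 68.9% in wild type and 72.6% in deltaFT.

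Absent wild-type peaks were also more often read from a single allele. Among those with at least 50 allelic reads, 57 of 1170 (4.87%) had at least 90% first-listed reads and 46 (3.93%) at most 10%. Among the 16917 shared wild-type peaks of that depth the shares were 0.662% and 0.674%. For deltaFT peaks in no wild-type list they were 2.08% and 1.56% of 576.

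The absent peak with most reads in wild type was chr15:51871403-51872361, with 760 reads, 322 first-listed and 230 second-listed, and it was also open in mESC. The peak chr10:81816812-81817420 held 741 reads (212 and 166 by allele), and chr10:81703528-81704318 on the same chromosome held 675 (208 and 161). Both chromosome 10 sites were open in mESC, and the latter began a run of 4 such peaks, chr10:81703528-82086277, of which 3 were in no deltaFT list. The peak chr19:33466031-33466889, with 619 reads, was read from the second-listed allele only, with 0 of 463 allelic reads from the first-listed one (at most 0.794%). The peak chr7:109835323-109836163 leaned the other way, with 669 reads in all and 389 first-listed against 60 second-listed ones. Among deltaFT peaks the leading site absent from wild type was chr6:57485408-57485942, with 1225 reads, 319 and 443 by allele, also open in mESC. It was followed by chr14:105988535-105989125 with 800 reads and chr1:123373440-123374131 with 785, neither of them open in mESC. Of the 10 leading absent autosomal peaks, 8 overlapped an mESC peak in wild type and 2 in deltaFT. Among all autosomal peaks with 400 reads or more the shares were 68.9% in wild type and 72.6% in deltaFT.

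On chromosome X the wild-type peak with most reads among those in no deltaFT list lay at chrX:72995729-72996020, with 337 reads, 224 first-listed and 2 second-listed. Whether this peak lies within the region deleted in deltaFT, where DNA itself would be missing, was not tested. The deltaFT peak with most reads among those in no wild-type list was chrX:120216750-120217520, with 760 reads, 273 first-listed and 4 second-listed. Both were read almost wholly from the allele that gave fewer reads over the chromosome as a whole. A further deltaFT peak, chrX:50973285-50973782, had 331 reads, 2 and 284 by allele.

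Read levels at shared sites were similar between the lines, with a small set of sites changed by a factor of 2 or more. Matched peaks are pairs in which each is the other's largest overlap, and they numbered 26090, of which 25334 were autosomal. Reads were scaled per kb of peak and per 1000000 reads in autosomal peaks of the same list, and a peak was called where this level differed at least 2-fold and its mean count was at least 20. The autosomal median log2 ratio, deltaFT over wild type, was -0.005, with quartiles of -0.37 and 0.33. Of the 25334 autosomal pairs 518 were called higher in deltaFT (2.04%) and 980 lower (3.87%). On chromosome X 9 of 755 were higher (1.19%) and 71 lower (9.4%), around a median log2 of -0.20. Over all 26089 tested pairs 527 were higher (2.02%) and 1051 lower (4.03%). The split depended on the width of the called peak. Without division by width the autosomes had 2164 higher and 1895 lower calls and chromosome X 30 and 98.

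Sites with fewer reads in deltaFT resembled the absent wild-type sites in that few were open in stem cells. Of the 980 lower autosomal peaks 14.2% (12.1% to 16.5%) overlapped an mESC peak, of the 518 higher ones 34.9% (30.8% to 39.2%), and of those changed less than 2-fold 44.7%. Median reads of the lower peaks were 325 in wild type and 130 in deltaFT, and of the higher peaks 155 and 384.

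The significance that the authors give each peak in each library can be set beside these calls. Each matched autosomal peak was ranked by this −log10 p in each library and placed on a scale of percentiles. The same peak differed by a median of 10.4 percentile points between the wild-type libraries and 10.5 between the deltaFT libraries, and by 13.9 to 14.9 between libraries of different lines. Both deltaFT libraries ranked above both wild-type libraries in 474 of the 518 higher calls (91.5%), against 25.5% of all pairs. Both ranked below in 910 of the 980 lower calls (92.9%), against 24.4% of all pairs. Lower calls had median percentiles of 74.7 and 73.4 in the wild-type libraries and 23.2 and 23.9 in the deltaFT libraries. The −log10 p and the read counts come from sequencing of the same cells, so this compares the same lines again. The called peaks were chosen by those counts. Their ranks were therefore bound to follow the calls in large part and give no separate evidence for them.

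Among the lower autosomal peaks with a mean of at least 100 reads, the largest change was at chr11:3092752-3093903, with 17262 reads in wild type and 1036 in deltaFT (log2 -3.09). No read of this peak was assigned to an allele in either line or in mESC, as was the case for 7.52% of wild-type and 6.75% of deltaFT peaks. Next was chr7:124696553-124697142, with 926 and 114 reads (log2 -2.68), with no mESC peak. Its first-listed reads went from 121 to 10 and its second-listed reads from 165 to 42, so that both alleles lost reads. The authors' −log10 p for it was 37.2 and 43.5 in the wild-type libraries and 8.94 and 9.48 in the deltaFT libraries, with no overlap between the lines. The peak chr17:42878608-42879214 went from 978 to 154 reads (log2 -2.58) with a near-equal share of the alleles in both lines, 49.7% and 56.4% first-listed. The peak chr12:119110706-119111355 went from 689 to 47 reads, chr6:122552263-122552548 from 314 to 61 and chr7:69127077-69127679 from 978 to 131. Of the 10 named lower peaks 2 overlapped an mESC peak, the one on chromosome 11 and chr6:58974161-58974824 (1454 and 292 reads).

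The largest gain was at chr10:119825388-119825967, with 117 reads in wild type and 742 in deltaFT (log2 2.63). Its −log10 p was 7.23 and 7.18 in the wild-type libraries and 24.2 and 22.8 in the deltaFT libraries. Its alleles gained together, from 10 to 123 first-listed and from 4 to 102 second-listed reads. The peak chr13:114254438-114255180 went from 297 to 1397 reads (log2 2.21), with 76.6% (69.5% to 82.8%) and 67.0% (63.4% to 70.4%) first-listed reads. The peak chr8:114436669-114437351 went from 191 to 876 reads (log2 2.08), and its first-listed share from 74.6% (61.6% to 85.0%) to 49.9% (44.8% to 54.9%). Here the second-listed allele gained most, from 15 to 198 reads, while the first-listed went from 44 to 197. Chromosome 11 held 4 of the 10 named higher peaks. One of them, chr11:88268477-88268920, went from 148 to 850 reads, 57 to 198 on the first-listed and 36 to 314 on the second-listed allele. Another, chr11:94072053-94072850, was called through its width: it had 357 and 396 reads, a log2 of 1.83 per kb but 0.13 per peak.

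**Figure D2:**
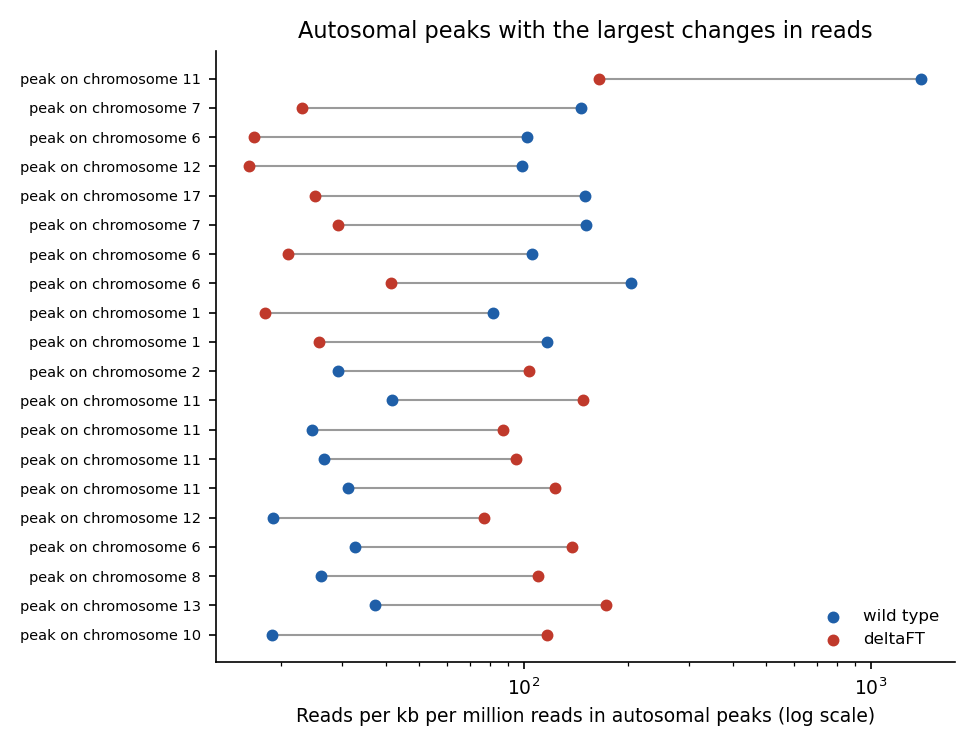
Reads per kb and per 1000000 reads in autosomal peaks (log scale) of the 20 autosomal matched peaks with the largest changes and a mean of at least 100 reads; blue points are wild type, red points deltaFT. The 10 upper pairs are lower in deltaFT, from log2 -3.09 at the top, and the 10 lower pairs are higher, up to log2 2.63 at the bottom.

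The sites with most reads in both lines were few and mostly without allele information. Values here name wild type first and deltaFT second. The peak chr17:39980031-39981876 held 11179 and 34503 reads, with called widths of 1846 and 3794 bp (log2 0.57 per kb). For chr2:98506382-98507514 the counts were 15276 and 12128 (log2 -0.34 per kb). For chr1:24619442-24620079 they were 12764 and 5642, with called widths of 638 and 261 bp (log2 0.096 per kb). None of these had an allelic read, and the level per kb of each changed by less than 2-fold. The peak chr17:3083853-3084588 held 12352 and 4106 reads (log2 -1.59), and in wild type 50 of its allelic reads were first-listed and 9099 second-listed.

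Changed sites lay near one another more often than other sites. A second higher call lay within 50 kb of 69 of the 518 higher peaks (13.3%), and a higher call lay that near to 3.61% of the other peaks. For lower calls the shares were 12.2% (120 peaks) and 5.11%. Of the higher calls 418 lay outside the 24 windows of 5 Mb with shifted allelic shares described below, as did 955 of the lower calls. Neighbour shares were not recomputed without these windows. Taking absent and at least 2-fold lower wild-type peaks together, 5172 of 39692 autosomal peaks (13.0%) were lower in deltaFT, and 190 runs of at least 3 consecutive such peaks occurred, 24 of them of at least 5. In the other direction 2510 of 36036 deltaFT peaks (6.97%) were higher or absent from wild type, with 42 runs of at least 3 and 2 of at least 5.

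The longest lower run was chr9:4590059-5542161, with 12 consecutive wild-type peaks, 11 of them in no deltaFT list, and 2446 reads against 161 in the overlapping deltaFT peak. The run chr16:7448136-7607163 had 8 peaks with 762 reads, all in no deltaFT list. At chr1:105926272-106651524 there were 6 peaks with 2887 reads in wild type and 777 in the 3 overlapping deltaFT peaks. None of the peaks of these last runs was open in mESC. The longest higher run was chr11:87236059-87276636, where 6 peaks within 40.6 kb had 6323 reads in deltaFT and 2613 in wild type, and 4 of them were open in mESC. At chr6:49160421-49177481 there were 5 peaks with 1792 reads in deltaFT. Of these, 4 were in no wild-type list, and the 1 overlapping wild-type peak had 139 reads. At chr11:96179846-96213456 there were 4 peaks with 980 reads in deltaFT, none of them open in mESC. Of these, 3 were in no wild-type list, and the 1 overlapping wild-type peak had 67 reads. Both chromosome 11 runs lie in 5 Mb windows where the median peak was higher in deltaFT, with a log2 of 0.74 at 85 to 90 Mb and 0.39 at 95 to 100 Mb. Wild-type reads at sites without a wild-type peak were not counted.

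Whole chromosomes differed little in reads per peak. Autosomal medians of the log2 ratio ran from -0.16 on chromosome 17 and -0.15 on chromosome 7 to 0.13 on chromosome 11, and chromosome X stood at -0.20. Chromosome 11 had the highest share of higher calls, 63 of 1526 (4.13%).

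**Figure D3:**
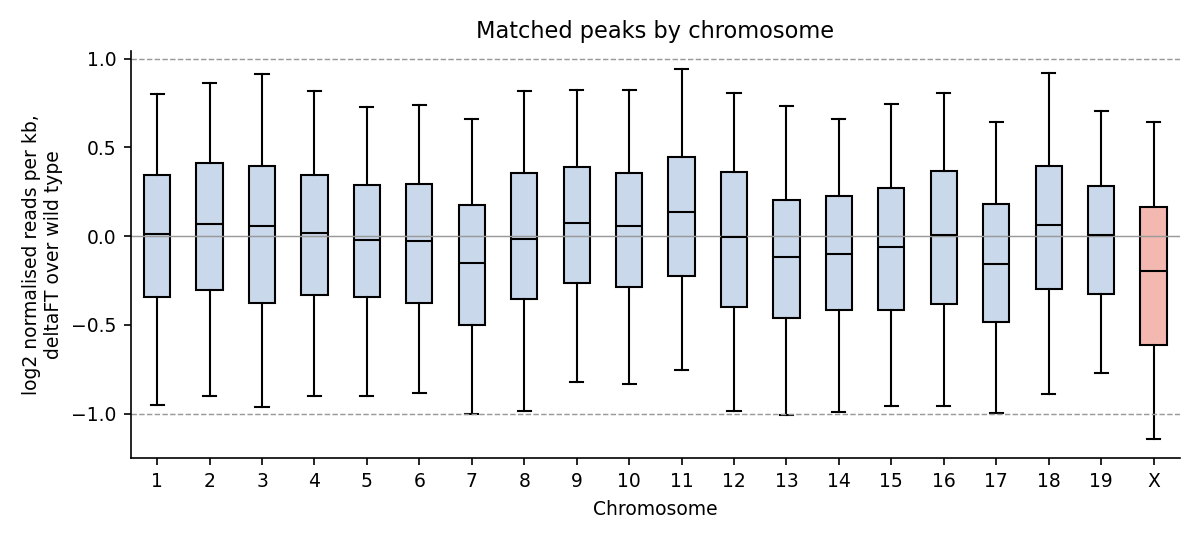
Log2 ratio of normalised reads per kb, deltaFT over wild type (vertical), of matched peaks by chromosome (horizontal). Boxes span the quartiles with the median as a line, whiskers run from the 5th to the 95th percentile, dashed lines mark 2-fold, and chromosome X (red) has the lowest median, -0.20.

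The balance of the alleles, measured at 21929 matched peaks with at least 10 allelic reads in each line, shifted at a minority of sites. On autosomes the first-listed share was lower in deltaFT, with intervals apart, at 1363 of 21430 peaks (6.36%) and higher at 815 (3.8%). On chromosome X it was lower at 101 of 499 peaks (20.2%) and higher at 16 (3.21%). Over both together 1464 peaks were lower (6.68%) and 831 higher (3.79%). The called autosomal peaks differed by a median of 22.1 percentage points. Pooled over the autosomes the share went from 50.4% to 49.0%.

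Single chromosomes stood off this balance. On chromosome 11 the pooled first-listed share went from 57.5% (57.3% to 57.7%) to 47.6% (47.4% to 47.8%), next to 51.1% in mESC. On chromosome 18 it was 54.7% and 47.7%, and on chromosome 8 50.5% and 44.9%. Chromosomes 4 and 19 went the other way, from 47.1% to 52.2% and from 44.0% to 49.0%. Of these, chromosomes 4, 8, 11 and 18 had pooled shares of the lines on opposite sides of equal shares. So did other chromosomes with smaller differences, such as chromosome 10 (52.2% and 49.6%) and chromosome 12 (51.5% and 49.6%).

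The largest differences lay in a few large segments. In 492 autosomal 5 Mb windows holding 5 or more usable peaks, the deltaFT share differed from wild type by at least 10 percentage points in 24, of which 16 were lower and 8 higher. These 24 windows held 1053 of the peaks, of which 31.1% were called lower and 11.8% higher. In the other windows 5.08% of 20377 peaks were lower and 3.39% higher. On chromosome 11 the share went from 53.8% (52.7% to 54.8%) to 31.0% (30.3% to 31.7%) at 85 to 90 Mb, from 54.6% to 30.1% at 90 to 95 Mb and from 55.1% to 37.4% at 95 to 100 Mb. Of the 75 usable peaks at 85 to 90 Mb, 46 were called lower and none higher. On chromosome 8 the share went from 52.4% (51.7% to 53.2%) to 32.3% (31.8% to 32.9%) at 70 to 75 Mb, with 60 of 106 peaks lower, and from 49.9% to 30.9% at 75 to 80 Mb. On chromosome 3 it went from 53.0% to 32.4% at 65 to 70 Mb, on chromosome 10 from 52.7% to 35.1% at 20 to 25 Mb, and on chromosome 2 from 51.6% to 34.9% at 0 to 5 Mb. In these windows the wild-type share lay between 49.9% and 55.1% and the deltaFT share between 30.1% and 37.4%. The windows that went up included 120 to 125 Mb of chromosome 1, from 48.2% (47.3% to 49.2%) to 64.0% (63.2% to 64.7%), and 40 to 45 Mb of chromosome 4, from 45.0% to 59.7%. On chromosome 12 the share at 95 to 100 Mb went from 40.2% (38.4% to 42.1%) to 56.9% (55.2% to 58.5%), and in mESC it was 26.7%. The median peak of this window moved less, from 46.8% to 52.3%, and 4 of its 17 peaks were called higher.

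**Figure D4:**
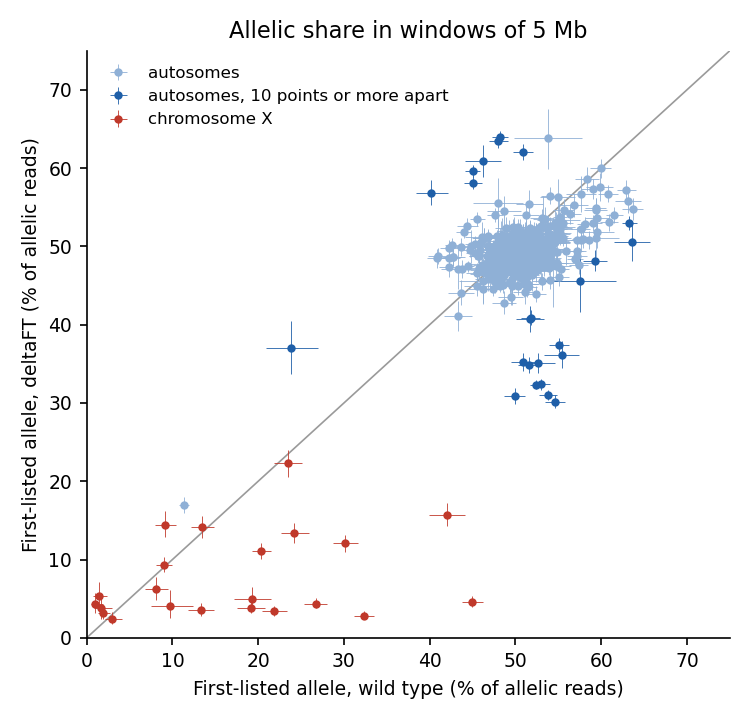
First-listed allele share (% of allelic reads) in 5 Mb windows holding 5 or more usable peaks, wild type (horizontal) against deltaFT (vertical), with exact 95% intervals and the line of equality. Dark blue points are the 24 autosomal windows at least 10 percentage points apart, and most of the red chromosome X windows lie below the line.

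Counted allele by allele, most of the shifted autosomal windows had more reads of one allele. Allelic reads of a window were set against all allelic reads of usable autosomal peaks in the same line. In the 16 lower windows the second-listed reads had a median log2 ratio of 0.86 (0.01 to 1.57), above 0 in all 16, and the first-listed reads one of -0.19 (-0.77 to 0.22). In the 8 higher windows the first-listed reads had a median of 0.63 (0.24 to 0.91), above 0 in all 8, and the second-listed one of -0.17. At 25 to 30 Mb of chromosome 18, by contrast, the first-listed allele stood at -0.77 and the second-listed at 0.01, as the share went from 63.6% to 50.5%. At 85 to 90 Mb of chromosome 11 the second-listed allele stood at 1.57 and the first-listed at 0.19, and the median peak had a log2 ratio of total reads of 0.74. At 20 to 25 Mb of chromosome 10 the values were 1.27, 0.22 and 0.78. ATAC reads scale with the number of DNA copies as well as with how open each copy is, and these lists do not tell them apart. In stem cells the shifted windows other than those on chromosome 12 lay between 44.7% and 54.3%. On chromosome 12 the stem cell shares were 24.9% at 90 to 95 Mb and 26.7% at 95 to 100 Mb, below both progenitor lines. Low stem cell shares were not particular to these windows. They were 23.4% at 75 to 80 Mb and 26.1% at 110 to 115 Mb, where the progenitor lines differed little.

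Other windows changed in reads of both alleles. At 75 to 80 Mb of chromosome 12 the median log2 ratio was 0.62, with 0.67 for the first-listed and 0.71 for the second-listed allele and shares of 49.2% and 48.6%. At 65 to 70 Mb of chromosome 9 it was 0.53, with shares of 51.0% and 50.0%, and at 55 to 60 Mb of chromosome 18 it was 0.51. The lowest window was 45 to 50 Mb of chromosome 7, at -0.76, with -0.67 and -0.87 for the alleles, and its share went from 43.7% (42.8% to 44.6%) to 47.1% (46.0% to 48.3%), with intervals apart. It was followed by 45 to 50 Mb of chromosome 1 at -0.72 and 10 to 15 Mb of chromosome 7 at -0.69. In these windows both alleles changed in the same direction.

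**Figure D5:**
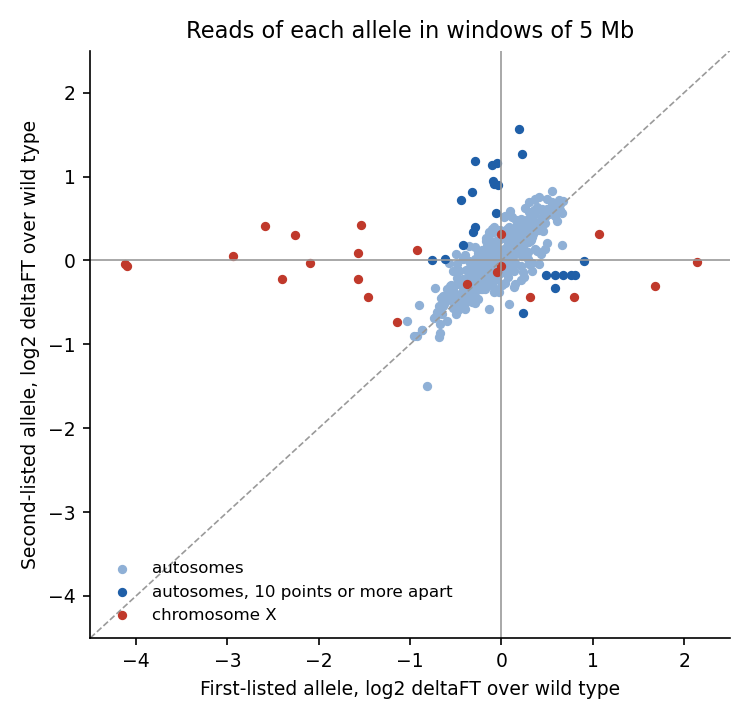
Log2 ratio of allelic reads, deltaFT over wild type, of the first-listed (horizontal) and second-listed allele (vertical) in windows of 5 Mb, each set against autosomal allelic reads; the dashed line marks equal change. Light blue autosomal windows follow the dashed line, most of the 24 dark blue windows lie off it, and chromosome X windows (red) spread along the first-listed axis down to -4.12.

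Sites read from a single allele on autosomes were rare and overlapped only in part between the lines. Of 15408 autosomal peaks with at least 50 allelic reads in each line, 104 in wild type had at least 90% first-listed reads and 104 at most 10%. The deltaFT numbers were 97 and 109. Of the 104 first-listed sites 47 were so in deltaFT as well and 36 held between 20% and 80%. Of the 104 second-listed sites the numbers were 47 and 37. In the other direction 40 and 42 sites balanced in wild type were read from the first-listed or second-listed allele in deltaFT.

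A single autosomal site of the 15408 changed from one allele to the other. This was chr7:150835124-150835703, with 1 first-listed and 88 second-listed reads in wild type against 114 and 3 in deltaFT. In mESC it had 50 and 71, and its total of 221 and 246 reads differed little between the lines. Similar total reads with a new balance were also seen at chr2:177249322-177250000, with 346 and 329 reads in all. Its first-listed reads were 0 of 155 in wild type (at most 2.35%) and 55 of 101 in deltaFT. At chr17:26799909-26800221, with 160 and 161 reads, the allelic reads went from 73 first-listed and 0 second-listed to 23 and 55.

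Other sites had lost nearly all reads of one allele, while their level per kb changed by less than 2-fold. At chr3:145316218-145316788 the counts were 141 and 207 by allele in wild type against 118 and 0 in deltaFT, and total reads went from 478 to 144 in a called width of 571 and 197 bp (log2 -0.21 per kb). The peak chr6:125280661-125281347 went from 112 and 80 to 1 and 73 (log2 of the level -0.45), and chr6:71093799-71094749 from 150 and 109 to 2 and 127 (-0.34). At chr1:58026731-58027121, by contrast, an allele was gained: 77 first-listed and 0 second-listed reads in wild type became 113 and 167. Total reads there went from 133 to 452 in a width of 391 and 814 bp. Reads were counted within each line's own called peak, so the stretches compared at these sites differ.

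On chromosome X the lower first-listed share came from fewer first-listed reads. Over the 499 usable peaks first-listed reads went from 13273 to 4321 and second-listed reads from 46547 to 50125. Set against autosomal allelic reads these are log2 ratios of -1.77 and -0.04. The 137 peaks with 20% to 80% first-listed reads in wild type stood at -2.23 for the first-listed and -0.03 for the second-listed allele, and their median log2 of total reads was -0.60. Of the 81 chromosome X peaks called lower that had at least 50 allelic reads in each line, first-listed reads were at least 2-fold lower at 79 and second-listed reads at 4. The 282 peaks with under 5% in wild type had 284 and 1067 first-listed reads. These classes are drawn by the wild-type share, so part of a move away from it follows from the choice, and the values are a description.

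First-listed reads were fewer both in chromosome X peaks with lower totals and in those changed less than 2-fold. The 47 usable peaks with totals at least 2-fold lower had log2 ratios of -4.11 for the first-listed and -0.60 for the second-listed allele. In the 448 peaks changed less than 2-fold the values were -1.48 and 0.01. Allelic reads are part of the totals that define these classes, so low values in the 47 peaks follow in part from the choice. The named peak with the largest drop, chrX:72999977-73000217, went from 180 to 31 reads, with 41 and 109 by allele in wild type against 0 and 28 in deltaFT. Its −log10 p did not separate the lines, with 14.1 and 14.3 in the wild-type libraries and 15.5 and 10.5 in the deltaFT libraries. It lies close to the absent peak chrX:72995729-72996020, and whether it falls within the deleted region was likewise not tested. The peaks chrX:7651238-7652274 (1767 and 486 reads) and chrX:7673921-7674311 (780 and 229) also had no first-listed read in deltaFT, from 34 and 12 in wild type. In the other named lower peaks the second-listed reads were fewer, from 29 to 6 at chrX:152337764-152338023 and from 96 to 19 at chrX:153029253-153029668. Their first-listed reads were 1 and 3 in wild type and 2 and 6 in deltaFT. At chrX:159173425-159173821 the allele was exchanged, with 56 and 0 reads by allele in wild type against 0 and 109 in deltaFT.

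Along chromosome X the change in first-listed reads was uneven. The log2 ratio of first-listed reads was -4.12 at 160 to 165 Mb and -4.10 at 70 to 75 Mb, where the second-listed allele stood at -0.04 and -0.07. It was -2.94 at 95 to 100 Mb and -2.59 at 155 to 160 Mb. At 45 to 50 Mb and 90 to 95 Mb it was -0.05 and -0.004, and the shares there had overlapping intervals, 13.4% and 14.1% in the first of these and 8.99% and 9.35% in the other. In other windows first-listed reads were more numerous in deltaFT, at a low share. Their log2 ratio was 0.32 at 15 to 20 Mb, where the share went from 9.13% (7.94% to 10.4%) to 14.5% (12.9% to 16.1%). It was 1.68 at 55 to 60 Mb, 0.79 at 80 to 85 Mb, 1.07 at 135 to 140 Mb and 2.14 at 140 to 145 Mb, with deltaFT shares of 3.14% to 5.35%. The wild-type shares there were 0.987% to 1.89% of 709 to 1644 allelic reads, so these ratios rest on few first-listed reads. At 150 to 155 Mb both alleles had fewer reads, -1.15 and -0.74, and the median peak total stood at -0.57. In both lines the library 2 list repeats the chromosome X peaks of library 1, so these lists give no spread for this chromosome. The reproducible lists do hold a −log10 p of each library for its peaks. Ranked among the 755 chromosome X pairs, a peak differed by a median of 10.2 percentile points between the wild-type libraries, 12.1 between the deltaFT libraries and 13.5 to 15.8 between lines. Both deltaFT libraries ranked below both wild-type libraries in 57 of the 71 lower calls (80.3%), against 24% of all these pairs, and above in 7 of the 9 higher calls, also against 24%. Here too the ranks were bound to follow the calls in large part.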

How the data were processed

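Per the submitters' processing notes, reads were handled with cutadapt, Bowtie2 and MACS2 on mm9, with versions and allele assignment not given in the sources used here. Each list reproducible between libraries (irreproducible discovery rate under 0.05), as deposited by the authors, holds a read count per peak and per allele and the −log10 p of each library. The library lists deposited by the authors hold MACS2 −log10 p values, used to rank or describe peaks, and a fold enrichment ratio, not used here. No header says whether a count covers 1 or both libraries. Peaks were matched as mutual largest overlaps, and presence needed 1 bp. Allelic shares needed 10 allelic reads in each line. Named peaks had the largest change at a mean of at least 100 reads, the largest share difference at 50 or more allelic reads, the most reads, or the most reads among absent peaks. Single-allele classes, runs and other sites within 50 kb were added after the data were seen. The steps were tested on simulated data. Tools were scipy 1.17.1, pandas 2.3.3, numpy 2.4.6 and matplotlib 3.10.9 under python 3.11.15. The comparison and its rules were chosen with earlier results of these data known. Gene lists and marker genes were not used here, for want of an mm9 annotation.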

Additional observations from a re-analysis of the deposited data

How the results depend on the processing

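No paired analysis was possible because each line is 1 sample. Where at least 50% of a peak had to be covered, 64.3% of autosomal wild-type peaks were in the deltaFT list and 69.2% the other way, and in no list were 17.2% and 12.3% on autosomes and 26.6% and 24.6% on chromosome X. With peaks of at least 50 reads the shares in the other list were 68.2% and 73.7% on autosomes and 67.7% and 76.3% on chromosome X, and those in no list 8.73% and 4.65%, and 6.40% and 5.54%. Leaving out either library list of the other line gave 13.0% to 17.2% of wild-type and 7.46% to 11.0% of deltaFT autosomal peaks in no list. Reads per peak instead of per kb gave 2164 higher and 1895 lower autosomal calls and 30 higher on chromosome X. On autosomes higher calls then outnumbered lower ones, where per kb 518 were higher and 980 lower. At least 100 allelic reads left 473 higher and 805 lower autosomal calls and 10 and 61 on chromosome X, and 99% intervals left 389 and 631, and 10 higher on chromosome X. Windows of 2 Mb gave 17 higher and 45 lower of 1066. Chosen after seeing the data, leaving out the 24 shifted windows gave 418 higher and 955 lower autosomal read calls and 691 and 1035 allelic calls, and leaving out peaks with no allelic reads gave 487 and 933 read calls. Of the alternative values of the counts, shares and chromosome medians, 60 others, all planned, stayed near those reported. Read counts are not given per library, so no library could be left out of them, and depth limits single peaks with few allelic reads.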
